A study of Drosophila melanogaster with 5 samples.

Results

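The genes described here were taken as serine proteases with which the Drosophila midgut digests dietary protein, though a midgut role was not checked for each. They were chosen by FlyBase symbol: genes whose symbol starts with Jon and a number, genes whose symbol ends in Try, and Ser6, Ser8, yip7 and Send1. The rule found 31 of the 17735 genes counted, of which 16 were Jon genes, 11 were Try genes and 4 were the others.

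The Jonah (Jon) and trypsin (Try) genes belong to the S1 family of serine endopeptidases, in which a histidine, an aspartate and a serine form the catalytic site. The enzymes are made by midgut epithelial cells as inactive precursors, secreted into the gut lumen and activated by cleavage. Trypsins cut after lysine and arginine, and most Jonah enzymes are predicted to be chymotrypsin-like. The genes are short, lie in tandem clusters and have closely related copies.

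RNA-seq libraries had been made from 3 samples of CG1603attP and 2 samples of y1w1118 third-instar larvae, and each was a biological replicate extracted from a weighed batch of whole larvae. The y1w1118 line served as wild type and carries mutations of the body colour gene yellow and the eye colour gene white, which the mutants share. In CG1603attP most of CG1603, the gene of the zinc-finger protein Mzfp1, had been replaced by an attP site and a dsRed reporter, and homozygous larvae were collected from balanced parents. Homozygous mutants die as larvae. The number of deletion lines used and the exact age of the larvae of either genotype were not given in the sources used here.

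Between 9044930 and 14514277 reads per library were analysed after ribosomal RNA genes had been left out. The deleted gene CG1603 had 0, 0 and 3 reads in the mutants and 124 and 102 in the controls, so the libraries fit their labels. Levels are given below as CPM, counts per 1000000 analysed reads after scaling of the libraries by TMM, and 1 read was worth between 0.0668 and 0.116 CPM. A gene was called higher or lower in CG1603attP when the adjusted p of edgeR's quasi-likelihood test over all 11045 genes tested was under 0.05, and errors of log2 fold changes are standard errors (SE). By this rule 3353 genes were called, and the median log2 fold change of all genes tested was -0.01. CG1603attP replicate 1 and y1w1118 replicate 2 deviated from their group means together, with a correlation of deviations of 0.47 across genes. With y1w1118 replicate 1 the value was -0.47, since 2 controls deviate from their mean by equal and opposite amounts. Summed levels of 7 salivary gland genes of wandering larvae, mostly of glue proteins, were at most 2.94 CPM in any library, and those of 6 larval fat body genes (Lsp and Fbp) were between 5.52 and 14.6 CPM.

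A limit of the counts touched several of the most abundant proteases. Some reads had been counted on a gene in the columns of the count files that use strand but had been set aside as ambiguous in the unstranded column, which was used because the library kit does not mark strand. Such reads made up at least 40.9% of those of alphaTry, betaTry, Jon99Cii, Jon99Fi and Jon99Fii, against at most 2.16% for the other 23 proteases tested and over 30% for 7.20% of all genes tested. The reads set aside on Jon99Fi equalled the sum of those on Jon99Cii and Jon99Fii within 0.612% in every library, and those of alphaTry and betaTry equalled each other within 2.78%. For alphaTry the share set aside differed between the groups: it was 82.7% and 77.9% in the controls and 37.0%, 40.0% and 40.6% in the mutants. Levels of these 5 genes are therefore uncertain, and each is followed below by the value of the genes that share reads as a pool. Reads shared by copies on the same strand are set aside in every column and could not be counted here.

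**Figure D1:**
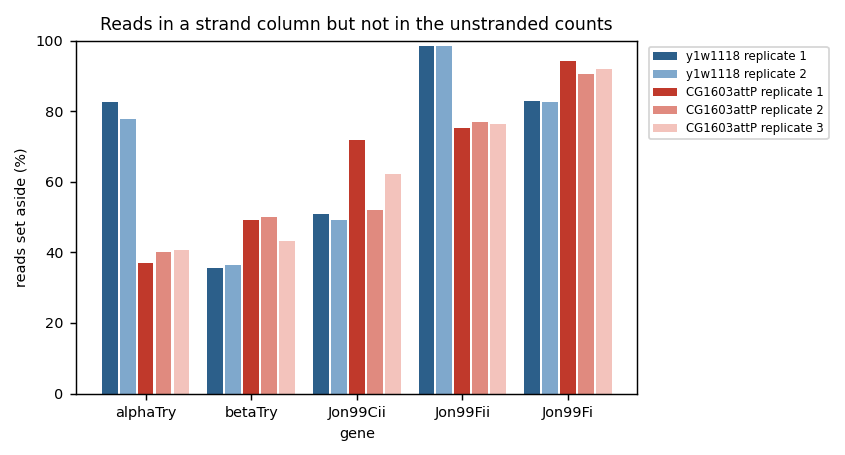
Share of reads set aside (y axis, percent of the reads counted on a gene in a strand column) for the 5 affected proteases (x axis), with 1 bar per library. In alphaTry and Jon99Fii the y1w1118 bars stand above the CG1603attP bars, and in betaTry, Jon99Cii and Jon99Fi below them. The loss of reads was therefore not the same in both genotypes.

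Digestive serine proteases moved in both directions in CG1603attP larvae. Of the 28 tested, 12 rose, 7 fell and 9 were not called. The called share was 67.9%, against 30.4% of all genes tested. The shares called higher and lower were 42.9% and 25.0%, against 14.6% and 15.7% of all genes. Mutant and control libraries were without overlap for 21 of the 28 proteases (75.0%), against 59.7% of all genes tested, and 16 of the 28 (57.1%) differed by more than 1 on the log2 scale, against 31.1%. The median log2 fold change of the 28 was 0.29 and its median size was 1.56, against 0.63 for the size over all genes. Among the 23 proteases with few reads set aside, 9 rose, 6 fell and 8 were not called. By name, 7 of 16 Jon genes rose and 6 fell, while 3 of the 9 Try genes tested rose and 1 fell. The counts by name include Jon99Fii and Jon99Fi, and alphaTry and betaTry, which had many reads set aside. Jon99Fii reversed to -0.39 and -0.20 (log2) in the strand columns. With the genes that share reads pooled, 10 of 25 proteases or pools rose and 6 fell. Without 1 library in turn the proteases called higher numbered between 8 and 11 and those called lower between 4 and 7, with 8 higher and 4 lower without y1w1118 replicate 1.

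Markers of the midgut itself and of other tissues moved with the genotypes as well. In whole larvae a lower level of a transcript can come from fewer cells of a type or from less RNA per cell, and the counts cannot tell these apart. The 6 midgut identity genes tested summed to between 607 and 685 CPM in CG1603attP and to 341 and 337 CPM in y1w1118. Of these, 4 rose, among them mex1, a gene of midgut absorptive cells (2.30 ± 0.20 log2, SE; adjusted p = 0.000648), nub, which encodes the transcription factor Pdm1 of enterocytes (2.11 ± 0.20; adjusted p = 0.000899), and GATAe, a midgut GATA factor (0.89 ± 0.14; adjusted p = 0.00497), all by edgeR. Myo31DF, which encodes an enterocyte brush border myosin, was at 195 to 228 CPM in CG1603attP and at 195 and 188 CPM in y1w1118 and was not called. The 6 muscle genes all fell, from 53262 and 47653 summed CPM in y1w1118 to between 13047 and 17673 in CG1603attP, with Mhc, the muscle myosin heavy chain, lower by -1.78 ± 0.21 (log2, SE; edgeR adjusted p = 0.00185). The part of these differences in the protease levels was not tested.

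**Figure D2:**
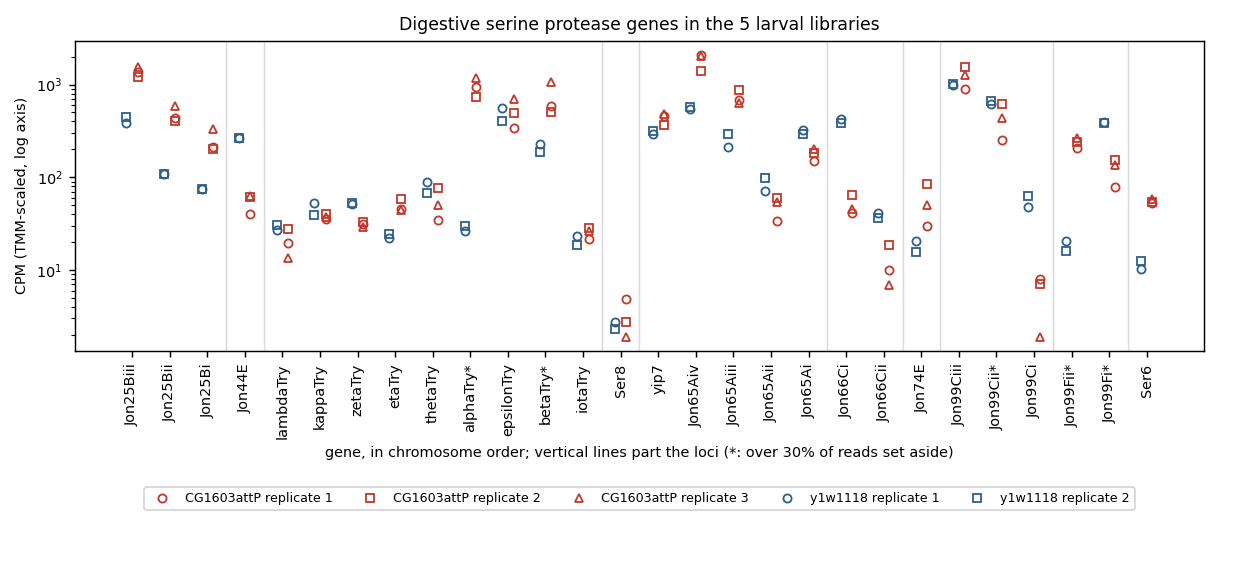
Level of each of the 28 proteases tested (y axis, CPM on a log axis) in every library, with genes in chromosome order and loci parted by vertical lines (x axis). Red symbols are the 3 CG1603attP libraries and blue symbols the 2 y1w1118 libraries, and the widest gaps between colours are at alphaTry and Jon99Fii (upward, both with many reads set aside) and at Jon66Ci and Jon99Ci (downward).

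The Jon25B cluster rose as a whole. Its genes Jon25Biii, Jon25Bii and Jon25Bi lie on the minus strand of chromosome 2L within 5204 bp (dm6, 2L:4949941-4955144), and each encodes a predicted chymotrypsin-like protease. Jon25Biii was at 1362, 1213 and 1540.4 CPM in CG1603attP replicates 1, 2 and 3 and at 381 and 449 CPM in y1w1118 replicates 1 and 2, a log2 fold change of 1.72 ± 0.16 (SE; edgeR adjusted p = 0.000815). Every mutant library lay above both controls, by a wide margin. Jon25Bii was at 434, 408 and 580.1 CPM against 109.6 and 108 CPM (2.12 ± 0.18; edgeR adjusted p = 0.000664). Jon25Bi was at 209, 201 and 335 CPM against 75.1 and 75.6 CPM (1.72 ± 0.25; edgeR adjusted p = 0.00353). The controls of each gene were close together, CG1603attP replicate 3 was the highest of the mutants for all 3 genes, and each call held under all 19 alternative settings. Although the 3 genes rose together, their proportions shifted: the ratio of Jon25Bii to Jon25Bi reads was 2.07, 2.03 and 1.73 in the mutants and 1.46 and 1.42 in the controls.

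The Jon65A cluster split. It holds yip7, Jon65Aiv, Jon65Aiii, Jon65Aii and Jon65Ai, in this order along 19228 bp of chromosome 3L (dm6, 3L:6035216-6054443), and the first 3 rose while Jon65Ai fell. Jon65Aiv was at 2093, 1412 and 2053 CPM in CG1603attP and at 544 and 570.4 CPM in y1w1118 (1.73 ± 0.20 log2, SE; edgeR adjusted p = 0.00173). Jon65Aiii was at 685, 868 and 633 CPM against 215 and 293 CPM (1.52 ± 0.20; edgeR adjusted p = 0.00262). Neither gene overlapped between the genotypes, and both calls held under every alternative. The paralog yip7 was at 459.8, 369.5 and 486 CPM against 294 and 315 CPM (0.53 ± 0.15; edgeR adjusted p = 0.0368). Its mutant libraries were also all above the controls, but by less. The call for yip7 was lost without CG1603attP replicate 1 or 3 (adjusted p = 0.0878 and 0.0577) and without y1w1118 replicate 1 or 2 (0.233 and 0.164).

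At the other end of the same cluster, Jon65Ai was at 150.3, 184 and 200.3 CPM in CG1603attP and at 322 and 293 CPM in y1w1118 (-0.79 ± 0.15 log2, SE; edgeR adjusted p = 0.00885). All mutant libraries were below both controls. Its call was lost without y1w1118 replicate 1 (adjusted p = 0.0782). Jon65Aii, which starts 630 bp after the end of Jon65Aiii on the same strand, was at 33.5, 60.0 and 54.5 CPM against 71.1 and 97.6 CPM and was not called (-0.77, 95% interval -1.44 to -0.11, edgeR adjusted p = 0.0809). The ratio of Jon65Aiii to Jon65Aii reads was 20.5, 14.5 and 11.6 in the mutants and 3.02 and 3.00 in the controls, without overlap. In contrast, the ratio of Jon65Aii to Jon65Ai reads overlapped, at 0.223, 0.326 and 0.272 in the mutants and 0.221 and 0.333 in the controls.

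The genes that fell most were Jonah genes of 3 other loci. Jon66Ci and Jon66Cii form a pair of opposite orientation on chromosome 3L (dm6, 3L:8391540-8393649). Jon66Ci was at 40.8, 64.8 and 45.2 CPM in CG1603attP and at 425 and 385 CPM in y1w1118, and fell by 3.01 on the log2 scale (SE 0.21; edgeR adjusted p = 0.00039), which is 8.05-fold. Jon66Cii was at 10.1, 18.6 and 6.88 CPM against 41.1 and 36.8 CPM (-1.71 ± 0.40; edgeR adjusted p = 0.0204). In both genes every mutant library was below both controls, and CG1603attP replicate 2 was the highest of the mutants. The call for Jon66Cii was lost without CG1603attP replicate 1 (adjusted p = 0.0557) and without y1w1118 replicate 1 or 2 (0.103 and 0.075).

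Jon44E, a lone Jonah gene on chromosome 2R (dm6, 2R:8691448-8692844), was at 40.3, 62.0 and 63.5 CPM in CG1603attP and at 266 and 263 CPM in y1w1118 (-2.26 ± 0.21 log2, SE; edgeR adjusted p = 0.000801). Jon99Ci, on chromosome 3R (dm6, 3R:29925226-29926189), was at 8.08, 7.12 and 1.91 CPM against 47.2 and 63.3 CPM (-3.26 ± 0.54; edgeR adjusted p = 0.00591). Mutants and controls were clearly apart for both genes, with the mutants of Jon99Ci themselves 4.24-fold apart from lowest to highest. Jon44E, Jon66Ci and Jon99Ci kept their calls in all 19 alternative settings.

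Outside the clusters, Ser6 and Jon74E rose. Ser6, a serine protease gene on the X chromosome (dm6, X:20962605-20963505), was at 53.1, 54.7 and 59.0 CPM in CG1603attP and at 10.3 and 12.5 CPM in y1w1118 (2.28 ± 0.20 log2, SE; edgeR adjusted p = 0.000718). It had the narrowest spread among the mutants of any protease tested, 1.11-fold, and its call held in every setting. Jon74E, on chromosome 3L (dm6, 3L:17548077-17549127), was at 29.6, 85.1 and 50.4 CPM against 20.6 and 15.8 CPM (1.60 ± 0.45; edgeR adjusted p = 0.0388). Its mutants lay above the controls but varied 2.88-fold among themselves, and its call was lost without CG1603attP replicate 2 or 3 (adjusted p = 0.0535 and 0.0596) and without y1w1118 replicate 1 or 2 (0.129 and 0.197). Ser8 was at 1.91 to 4.87 CPM in CG1603attP and at 2.75 and 2.32 CPM in y1w1118, which overlap, and was not called. Send1, named after the spermatheca, a sperm storage organ of adult females, had 1 read in all libraries together and was not tested.

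**Figure D3:**
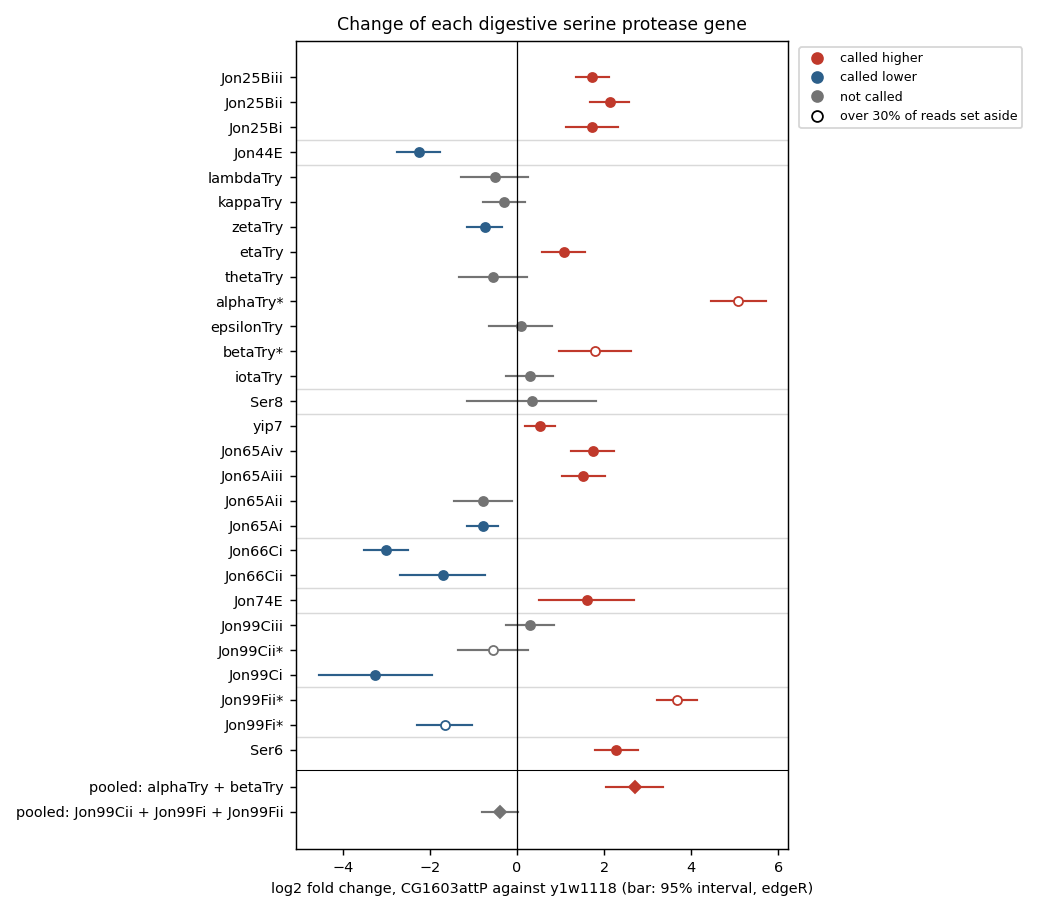
Log2 fold change of each protease (x axis, CG1603attP against y1w1118; points with 95% intervals from edgeR), with genes in chromosome order and loci parted by lines (y axis). Red genes were called higher, blue lower and grey were not called, open points had over 30% of their reads set aside, and diamonds are pooled genes with shared reads counted once: 2.70 for the alphaTry and betaTry pair and -0.39 for the Jon99 genes.

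The trypsin cluster of chromosome 2R holds all 11 Try genes within 20698 bp (dm6, 2R:11336840-11357537), and 5 of the 9 tested were not called. The largest rise of any protease was that of alphaTry, which was at 945 CPM in CG1603attP replicate 1, 738 in replicate 2 and 1175 in replicate 3, and at 26.0 and 30.2 CPM in y1w1118 (5.08 ± 0.26 log2, SE; edgeR adjusted p = 0.000196). Its relative betaTry, on the opposite strand, was at 587, 502 and 1076 CPM against 230 and 188 CPM (1.79 ± 0.35; edgeR adjusted p = 0.0103). Every mutant library lay above both controls for both genes. Beside the larger share of alphaTry reads set aside in y1w1118 stands its change in the strand columns, which keep those reads: its log2 fold change was 3.40 and 3.56 there, the lowest of all alternative settings. The call for betaTry was lost without y1w1118 replicate 1 or 2 (adjusted p = 0.0547 and 0.0719). When alphaTry and betaTry were pooled and their shared reads counted once, the pair was at 2090.3, 1732 and 3058 CPM in CG1603attP and at 381 and 324 CPM in y1w1118. This is a log2 fold change of 2.70 ± 0.28 (SE; 95% interval 2.04 to 3.36; edgeR adjusted p = 0.00109), so the rise did not depend on how shared reads were divided between these genes.

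The gene between them did not follow. epsilonTry, whose ends lie 117 bp from alphaTry and 258 bp from betaTry, was at 338, 489.6 and 693 CPM in CG1603attP and at 556 and 400.5 CPM in y1w1118 (0.08, 95% interval -0.64 to 0.81, edgeR adjusted p = 0.864). Mutants and controls overlapped. The ratio of alphaTry to epsilonTry reads was 2.80, 1.51 and 1.69 in the mutants and 0.0468 and 0.0753 in the controls. These alphaTry counts lacked 82.7% and 77.9% of reads in the controls and 37.0%, 40.0% and 40.6% in the mutants. The size of this contrast is therefore uncertain. With alphaTry and betaTry pooled, the log2 fold change was 2.70 ± 0.28 (SE), against 0.08 for epsilonTry. A further adjacent pair on the minus strand parted as well: etaTry was at 45.2, 57.7 and 44.5 CPM against 22.4 and 24.5 CPM (1.07 ± 0.21 log2, SE; edgeR adjusted p = 0.0102), and zetaTry, 380 bp away, was at 31.0, 32.7 and 29.0 CPM against 51.3 and 52.2 CPM (-0.74 ± 0.17; edgeR adjusted p = 0.0172). Neither gene overlapped between the genotypes, but both calls were lost without y1w1118 replicate 1 (adjusted p = 0.0915 for etaTry and 0.109 for zetaTry) or replicate 2 (0.0671 and 0.126). The call for zetaTry was also lost in the first strand column (-0.54, adjusted p = 0.0578).

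The remaining trypsins were lambdaTry, kappaTry, thetaTry and iotaTry, which were between 13.3 and 88.7 CPM in all libraries, overlapped between the genotypes and were not called. Their log2 fold changes were -0.52, -0.30, -0.55 and 0.29, with 95% intervals that reached from -1.33 to 0.83 over the 4 genes. gammaTry and deltaTry had 1 and 2 reads in all libraries together, and at most 27 and 36 reads in any strand column of any library, with over 98% of their reads set aside. They were not tested, and no low level can be read from this. Outside this cluster, the Phaedra genes Phae1 and Phae2, serine proteases of chromosome 2L, rose by 1.33 ± 0.25 and 2.15 ± 0.23 (log2, SE; edgeR adjusted p = 0.00913 and 0.00121).

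The Jon99 genes lie on chromosome 3R and gave a large part of the protease reads of the controls. Levels can be compared between genes per kilobase of exon, and only for the 23 proteases with few reads set aside, since Jon99Cii, Jon99Fi, Jon99Fii, alphaTry and betaTry could stand higher in such an order than their unstranded counts place them. Among the 23, mean levels in y1w1118 were 807 CPM per kb for Jon99Ciii, 617 for Jon65Aiv, 576 for epsilonTry and 502 for Jon25Biii. In CG1603attP they were 2049.6 CPM per kb for Jon65Aiv, 1659 for Jon25Biii, 993 for Jon99Ciii and 833 for Jon65Aiii. Jon99Ciii, whose counts had few reads set aside, was at 891, 1547 and 1257 CPM in CG1603attP and at 980.5 and 1021 CPM in y1w1118, overlapped and was not called (0.30, 95% interval -0.25 to 0.85, edgeR adjusted p = 0.375).

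For the other Jon99 genes, single values depended on how the reads were assigned. Jon99Fii was at 205, 239 and 262 CPM in CG1603attP and at 20.7 and 16.0 CPM in y1w1118 (3.68 ± 0.19 log2, SE; edgeR adjusted p = 0.000208), and its neighbour Jon99Fi was at 78.7, 153 and 135 CPM against 395 and 381 CPM (-1.67 ± 0.26; edgeR adjusted p = 0.00492). Both are counts from which 84.8% and 88.3% of the reads had been set aside. In the strand columns, which keep those reads, Jon99Fii was lower by -0.39 and -0.20 (edgeR adjusted p = 0.0747 and 0.451), the opposite direction, and Jon99Fi was lower by -0.43 (0.0874) and -0.60 (0.0142), of which the latter passed the test. Jon99Cii was at 249, 614 and 436 CPM against 621 and 657 CPM, with 57.0% of its reads set aside, and was not called. The share set aside was 72.0%, 52.0% and 62.3% in CG1603attP and 50.8% and 49.2% in y1w1118, so its lower unstranded level is uncertain too. With shared reads counted once, Jon99Cii, Jon99Fi and Jon99Fii pooled were at 1796, 2462 and 2403 CPM in CG1603attP and at 2955 and 2856 CPM in y1w1118. All mutant libraries were below both controls, but the difference did not pass the test (-0.39 ± 0.17 log2, SE; 95% interval -0.80 to 0.02; edgeR adjusted p = 0.138). The sum says nothing of the single genes, whose changes can cancel in it.

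In sum of reads, the proteases took a larger part of the mutant libraries. Their summed level was 9097, 9558 and 11346 CPM in CG1603attP and 5921 and 5907 CPM in y1w1118. As a share of analysed reads, with reads set aside counted once, this was 1.25% ± 0.133 (SD, n = 3) against 0.742% ± 0.0029 (SD, n = 2). Every mutant library was above both controls. The exact permutation test gave p = 0.2 for both measures (two-sided, in a form that counts the smaller tail 2 times). This is the smallest value that this form allows with 3 against 2 libraries.

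The make-up of these reads also differed between the genotypes. Jon99Cii, Jon99Fi and Jon99Fii together gave 36.9% ± 0.401 (SD, n = 2) of the protease reads in y1w1118 and 18.5% ± 2.61 (SD, n = 3) in CG1603attP. These are shares of a total that was larger in the mutants. In level, the pool of these genes was lower without passing the test (-0.39 ± 0.17 log2, SE, edgeR adjusted p = 0.138). The Jon66C pair, Jon44E and Jon99Ci together gave 9.67% ± 0.139 in y1w1118 and 1.03% ± 0.256 in CG1603attP. In the other direction, alphaTry with betaTry went from 4.47% ± 0.45 to 18.9% ± 3.63, the Jon25B cluster from 7.59% ± 0.696 to 17.4% ± 1.35, and Jon65Aiv, Jon65Aiii and yip7 from 14.1% ± 1.31 to 25.3% ± 3.80. For each of these groups the difference between the genotypes was larger than the spread within either. The share of Jon99Ciii was 12.7% ± 0.533 in y1w1118 and 10.2% ± 2.81 in CG1603attP, a difference smaller than the SD of the mutants, and that of epsilonTry was 6.05% ± 1.31 and 4.13% ± 0.984. These groupings were drawn up with the fold changes in view and carry no test.

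**Figure D4:**
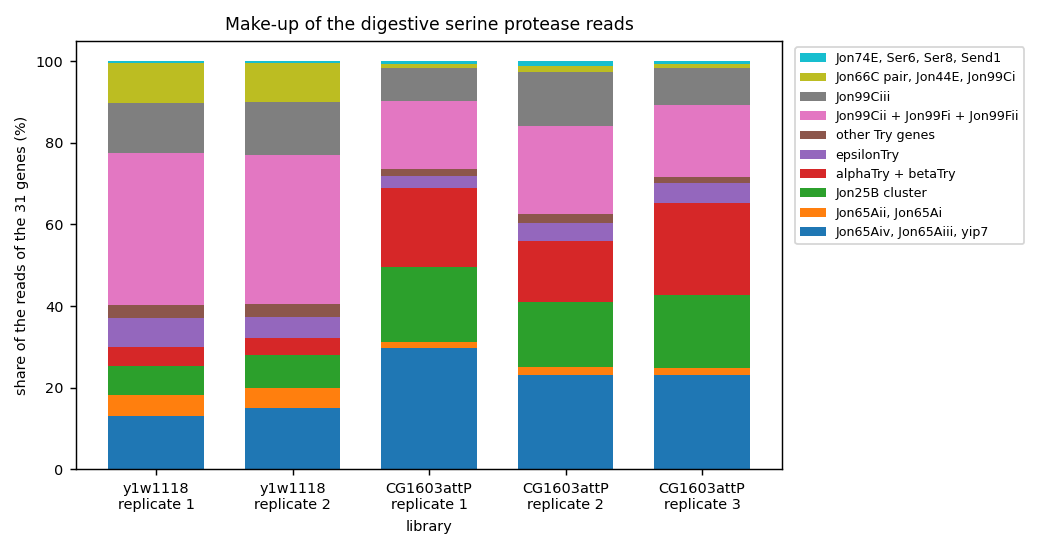
Share of the reads of the 31 proteases (y axis, percent, reads set aside counted once) given by each group of genes (colours) in each library (x axis). From y1w1118 to CG1603attP the band of Jon99Cii, Jon99Fi and Jon99Fii shrinks from 36.9% to 18.5% and that of the Jon66C pair, Jon44E and Jon99Ci from 9.67% to 1.03%, while the band of alphaTry and betaTry widens from 4.47% to 18.9%. The total was larger in CG1603attP, so a narrower band need not be a lower level.

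Genes of other digestive enzymes are described by class. Of 7 lipase genes tested, 4 rose and 0 fell by edgeR. At an unadjusted p under 0.05, 4 rose and 1 fell, and by DESeq2 5 rose and 0 fell. CG6283, a lipase of the pancreatic type, was at 254, 142 and 109.5 CPM in CG1603attP and at 0.294 and 2.20 CPM in y1w1118 (edgeR adjusted p = 0.00134). CG6271, of the same type, was at 42.5, 16.9 and 7.31 CPM against 0.0982 and 0.116 CPM (edgeR adjusted p = 0.00409). Those control values of CG6271 are 1 read in each library, below the floor of 3 reads, so only a rise of at least 69.3-fold can be given. For mag, the gene of the gut lipase Magro, levels were 33.1 to 77.7 CPM against 71.7 and 74.0 CPM, and it was not called. CG6295 was at 0 to 8.21 CPM against 29.8 and 34.5 CPM and was not called either (adjusted p = 0.0874). Over the 7 lipases the median log2 fold change was 6.60, or 3.78 with the gene that had no read in y1w1118 placed at the bound that 3 reads per library give.

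Of 13 amylase and maltase genes, 4 rose and 0 fell by edgeR, with a median of 0.46. At an unadjusted p under 0.05, 6 rose and 1 fell, and by DESeq2 5 rose and 1 fell. Among the 10 of these 13 genes with at most 30% of reads set aside over all libraries, 2 rose by edgeR. Mal-A6, a maltase, was 1 of them and rose by 2.13 ± 0.35 (log2, SE; edgeR adjusted p = 0.00561). The other lost 70.6% and 61.5% of its reads in y1w1118 and 13.0%, 27.8% and 5.10% in CG1603attP. The size of that rise is therefore uncertain. Of the 6 lysozyme genes tested, enzymes that cleave bacterial cell walls, 5 rose by edgeR, and the median was 4.49. LysX was at 188, 123 and 141 CPM against 0 and 0.348 CPM (edgeR adjusted p = 0.000307). Its control values are 0 and 3 reads, not above the floor of 3 reads. The lysozyme LysD lost 73.4% of its reads as set aside, and of the 3 lysozymes with few such reads all rose. In contrast, 9 of 12 carboxypeptidase genes fell and 0 rose by edgeR, at an unadjusted p under 0.05 and by DESeq2 alike, with a median of -1.16. These metalloproteases remove amino acids from the ends of the peptides that endopeptidases release. CG18585 was at 19.5, 25.6 and 14.0 CPM against 127 and 149.5 CPM (-2.81 ± 0.26; edgeR adjusted p = 0.000831), and CG17633 at 116, 148 and 146 CPM against 217 and 241 CPM (-0.75 ± 0.14; adjusted p = 0.00995). Of 6 lysosomal-type mannosidase genes, 2 fell and 0 rose by edgeR. At an unadjusted p under 0.05, 1 rose and 3 fell, and by DESeq2 1 rose and 3 fell. Those that fell by edgeR were LManII (-1.38 ± 0.21; edgeR adjusted p = 0.00433) and LManV (-2.42 ± 0.18; adjusted p = 0.000462). The edgeR counts stand beside 14.6% of all genes higher and 15.7% lower, and the lists were described and not tested as sets.

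Of 11 haemolymph proteases tested, enzymes of clotting, melanisation and Toll signalling that belong to the same S1 family, 0 rose and 0 fell by edgeR, with a median of -0.27, and 1 fell at an unadjusted p under 0.05 and 1 by DESeq2, while of all genes tested 14.6% were higher and 15.7% lower by edgeR. Whether they differ from the digestive proteases in this was not tested. Hayan, modSP, Sp7 and ea were between 15.4 and 44.5 CPM in all libraries. Of 8 genes of sugar sensing and of insulin and activin-type signalling, 3 rose, among them InR, the insulin receptor, was at 1007, 1133 and 963 CPM against 509 and 475.5 CPM (1.07 ± 0.13 log2, SE; edgeR adjusted p = 0.00173). The transcription factor Mondo and the activin-type receptor and SMAD genes babo and Smox were not called (log2 fold changes 0.15, 0.35 and 0.22). Of the marker lists, 1 of 5 neuronal genes rose by edgeR, 1 of 13 ecdysone response genes rose and 3 fell, and 1 of 2 peritrophic matrix genes fell, beside the same shares of all genes. At an unadjusted p under 0.05, 4 neuronal genes rose, and 5 ecdysone response genes rose and 3 fell. By DESeq2, 2 neuronal genes rose, and 2 ecdysone response genes rose and 3 fell. The peritrophic matrix count was the same in both. Among the ecdysone response genes, ftz-f1 was at 334, 231 and 227 CPM in CG1603attP and at 20.0 and 116 CPM in y1w1118. Its controls lay far apart, and it was not called (1.96 ± 0.67 log2, SE; edgeR adjusted p = 0.0709). Whether the libraries differed in larval stage was not tested.

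**Figure D5:**
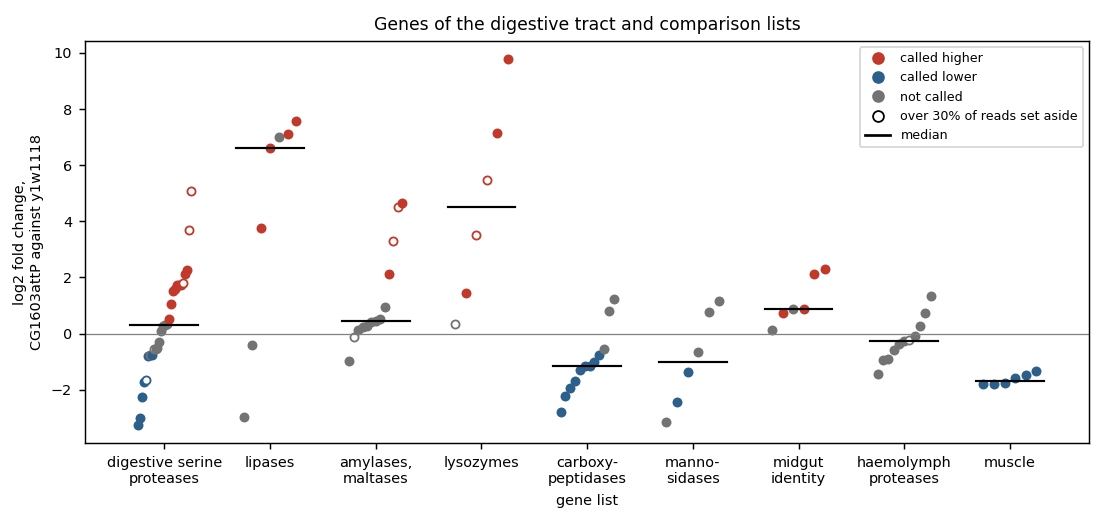
Log2 fold change (y axis, CG1603attP against y1w1118) of each gene tested in the digestive serine proteases and in 8 other lists (x axis), with the median as a bar; red genes were called higher, blue lower and grey were not called, and open points had over 30% of their reads set aside. The serine proteases spread on both sides of 0 (from -3.26 to 5.08), the lipases and lysozymes lie mostly above it, the carboxypeptidases mostly below it and the muscle genes wholly below it.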

How the data were processed

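RNA-seq counts of 3 CG1603attP and 2 y1w1118 libraries were used. The authors trimmed the reads with cutadapt, mapped them to dm6 by STAR and deposited the raw counts it gave per gene, in an unstranded and 2 stranded columns. Tool versions and the release of the annotation were not given in the sources used here. The counter's summary lines (unmapped reads made up 23.8% to 30.0%, multimapping 5.58% to 10.6%, no feature 4.15% to 6.22% and ambiguous 3.28% to 6.26% of reads) and ribosomal RNA genes (3.40% to 9.62% of gene reads) were left out.

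The unstranded counts were filtered with filterByExpr (minimum 10, total 15), scaled by TMM and tested with glmQLFit in its legacy form and glmQLFTest of edgeR 4.0.16 in R 4.3.3, with Benjamini-Hochberg adjustment over all genes and a threshold of 0.05. Standard errors were derived from the fold change and the F statistic (absolute log2 value over the root of F). A minimum of 3 reads was used as the floor. Shared reads of 2 genes were estimated as the sum of the stranded counts minus the unstranded count. For pooled values they were added once and the fit was repeated on 11042 rows. Positions and exon lengths were read from an Ensembl annotation with dm6 coordinates. In simulated counts for 11045 genes, the fit called 65% of 200 genes changed by 2 on the log2 scale and 5 unchanged genes.

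The members and gene lists were chosen with earlier results of these data known. Every member is named. Full statistics were given for members called and for the 5 most abundant, and up to 4 genes of each other list were named, those with the highest mean CPM. The alternatives were DESeq2 1.42.0, other fits, scalings and filters, the stranded columns, ribosomal genes kept, each library left out and the replicate number as a block. Leaving out CG1603attP replicate 1 with y1w1118 replicate 2, and the pooling of genes, were chosen after seeing the data.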

Additional observations from a re-analysis of the deposited data

How the results depend on the processing

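Of the 376 values that 20 named proteases took under 19 alternative settings, 347 kept direction and side of the threshold, 27 kept direction and lost the call, and 2 reversed. Both reversals were Jon99Fii, at -0.39 and -0.20 in the 2 strand columns. Without 1 library in turn the genes called numbered between 1410 and 3540, the proteases called lower between 4 and 7 and those called higher between 8 and 11. Without CG1603attP replicate 1 and y1w1118 replicate 2 together 1599 genes were called, with 5 proteases lower and 10 higher. Fewer samples entered these fits, and each lone y1w1118 sample was assumed to vary like the CG1603attP samples. With library size only, the median of all genes moved from -0.01 to 0.13 and the share of calls that were higher from 48.3% to 59.4%, while 12 proteases rose and 7 fell as before. In the first strand column 5 proteases were called lower and 11 higher, and in the second 7 and 11. DESeq2 called 4005 genes, with 8 proteases lower and 12 higher.

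The genotypes share replicate numbers 1 and 2, and whether these pair the larvae cannot be told here. Same-numbered libraries had correlations of deviations of -0.47 and -0.24. These values cannot decide it, since 2 y1w1118 libraries deviate from their mean by equal and opposite amounts. With the replicate number as a block, 2967 genes, 7 proteases lower and 10 higher were called, and yip7 (adjusted p = 0.0953), Jon74E (0.121) and zetaTry (0.0554) were not called.

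Send1 had too few reads to be tested, and gammaTry and deltaTry had nearly all of theirs set aside. The calls of 7 proteases (yip7, Jon74E, zetaTry, etaTry, betaTry, Jon66Cii and Jon65Ai) were lost when some 1 library was left out, a y1w1118 library or, for yip7, Jon74E and Jon66Cii, a CG1603attP library as well. Reads set aside limit alphaTry, betaTry, Jon99Cii, Jon99Fi and Jon99Fii.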
